A study of Mus musculus with 10 samples.

Results

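The 9 genes described here make or keep a cell a macrophage, and the data are peaks around them of p65, which is the RELA subunit of NF-κB. The genes are Spi1, Cebpa, Cebpb, Runx1, Irf8, Csf1r, Mitf, Tfec and Bhlhe40. A peak belonged to a gene when it overlapped the gene body extended by 10 kb on each side, its window, on the mouse build GRCm38. In all, 695 peaks of 9 libraries lay in the 9 windows, in 199 of the 235070 separate regions that the peaks of all libraries form when overlapping peaks are merged. The genes are 9 of the 21887 protein-coding genes of the annotation used.

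RAW264.7 cells, a macrophage-like line grown from a male mouse tumour that Abelson murine leukemia virus induced, were kept for 12 h in the solvent DMSO, in DMSO with lipopolysaccharide (LPS, a bacterial cell-wall component), or in LPS with skatole, an indole made by gut bacteria from tryptophan. Each treatment gave 3 libraries of 200000 cells, called DMSO, LPS and LPS+Skatole. The Blank sample, which had no primary antibody, was not analysed here, and no-antibody background could not be set beside the values. The method was CUT&Tag, which uses an antibody to tether a transposase at a protein's sites and sequences what the enzyme cuts out. The labels name a p65 antibody and the methods of the study an antibody to phosphorylated p65, so the form captured is not settled. Nothing in the labels says that the 3 libraries of a treatment came from separate cultures, so the p-values measure the spread between these libraries, which may be technical. All 3 groups are 1 line, which grows from a tumour, and not primary macrophages.

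PU.1, the product of Spi1, is the ETS-family factor that macrophage enhancers depend on, and it acts there with the C/EBP factors and with RUNX1 and IRF8. Csf1r is the receptor for the macrophage growth factors CSF1 and IL-34 and is itself a textbook target of PU.1 and RUNX1. MITF and TFEC are related basic helix-loop-helix zipper factors of the myeloid lineage, and BHLHE40 is a basic helix-loop-helix repressor of macrophages. p65 is held in the cytoplasm of resting cells and enters the nucleus after LPS, where it binds κB sites, often beside PU.1.

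The lists differ in length and depth, and both bear on every count below. DMSO lists held 37551 to 43450 peaks, LPS lists 55637 to 63498 and LPS+Skatole lists 78136 to 80153. The genome background, the reads expected at any position and hence a measure of depth, was 1.09 to 1.40 in DMSO, 2.23 to 2.34 in LPS and 2.26 to 2.39 in LPS+Skatole. On this measure LPS and LPS+Skatole libraries overlapped, whereas LPS+Skatole lists were 1.34 times as long. Read totals were not used here, so depth is known through this measure alone. Of 6 macrophage marker genes (Adgre1, Cd68, Lyz2, Itgam, Cd14 and Fcgr1), 6 had a peak in every library. Of 3 genes each, the B cell and the T cell markers had a peak for 1 to 3 genes per library, the hepatocyte markers for 0 to 2 and the cartilage markers for 0 to 3. A peak is not expression, so these counts describe the lists and not the identity of the cells.

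The 4 promoters that a p65 peak overlapped in at least 8 libraries are shown next, with a second Mitf promoter that had no peak and is shown for its κB match. They are RefSeq sequences of GRCm38.p6, from 250 bases before to 50 bases after the start of transcription, read in the direction of the gene. Of the 9 genes, 6 matched the promoter table, with 10 promoters. Spi1, Csf1r and Bhlhe40 were not matched. Capitals mark a match to the κB consensus, to the PU.1 core GAGGAAGT, to the C/EBP core TTGCNNAA or to the E-box CACGTG, each searched on both strands.

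Cebpb, chr2:167688665-167688964, + strand: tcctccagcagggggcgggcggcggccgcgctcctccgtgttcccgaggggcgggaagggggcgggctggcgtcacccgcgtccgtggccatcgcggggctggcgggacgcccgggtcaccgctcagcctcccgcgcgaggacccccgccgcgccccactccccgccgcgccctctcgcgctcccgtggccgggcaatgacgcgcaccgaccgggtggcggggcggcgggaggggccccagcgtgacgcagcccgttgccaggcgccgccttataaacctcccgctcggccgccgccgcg

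Irf8, chr8:120736108-120736407, + strand: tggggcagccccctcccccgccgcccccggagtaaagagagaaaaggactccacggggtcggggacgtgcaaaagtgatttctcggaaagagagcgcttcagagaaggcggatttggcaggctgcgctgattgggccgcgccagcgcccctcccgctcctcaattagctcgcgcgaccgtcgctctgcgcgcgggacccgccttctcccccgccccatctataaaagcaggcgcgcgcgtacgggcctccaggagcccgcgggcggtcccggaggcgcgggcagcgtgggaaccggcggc

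Runx1, chr16:92826025-92826324, - strand: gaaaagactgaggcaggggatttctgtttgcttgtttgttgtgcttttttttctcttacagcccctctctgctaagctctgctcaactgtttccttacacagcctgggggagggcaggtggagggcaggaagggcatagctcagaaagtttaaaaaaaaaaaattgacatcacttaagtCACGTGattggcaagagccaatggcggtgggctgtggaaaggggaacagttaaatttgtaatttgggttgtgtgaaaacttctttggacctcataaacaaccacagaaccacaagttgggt

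Mitf, chr6:97806808-97807107, + strand: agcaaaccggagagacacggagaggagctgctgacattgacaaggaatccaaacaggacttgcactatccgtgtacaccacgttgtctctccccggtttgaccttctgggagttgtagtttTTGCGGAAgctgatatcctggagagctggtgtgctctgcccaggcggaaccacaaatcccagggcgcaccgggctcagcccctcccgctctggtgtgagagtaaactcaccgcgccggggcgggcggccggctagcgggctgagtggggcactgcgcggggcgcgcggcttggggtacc

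Mitf, chr6:97929567-97929866, + strand, no peak: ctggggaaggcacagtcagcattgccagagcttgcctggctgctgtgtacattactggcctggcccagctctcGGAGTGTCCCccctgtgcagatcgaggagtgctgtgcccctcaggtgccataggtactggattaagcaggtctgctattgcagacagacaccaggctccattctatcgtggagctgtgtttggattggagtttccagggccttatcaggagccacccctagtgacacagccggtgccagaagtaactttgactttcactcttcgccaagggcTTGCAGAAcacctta

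A peak overlapped the Irf8, the Runx1 and the upstream Mitf promoter in 9 of 9 libraries and the Cebpb promoter in 8. A second Irf8 promoter, chr8:120738389-120738688, which is not printed, was overlapped in 1 library, and the others in none. The summit itself, the base with most reads, lay inside the Mitf promoter in 8 libraries, inside the Irf8 promoter in 7, inside the Runx1 promoter in 2 and inside the Cebpb promoter in 0. At Cebpb the summits sat 54 to 304 bases past the start of transcription. The only κB match among the 10 promoters was in the second Mitf promoter, 177 bases before its start, and no library had a peak there. The covered Mitf promoter held a C/EBP core 129 bases before its start, the second Mitf promoter another one 35 bases past its start, and the Runx1 promoter an E-box 71 bases before its start. No match overlapped another, and none of the 10 held the PU.1 core. Of the 32851 promoters of this length in the table, 8.46% held the κB consensus, 3.20% the PU.1 core, 10.8% the C/EBP core and 7.15% the E-box. These matches describe letters in a window and are not binding sites.

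The number of p65 peaks at the 9 genes together was higher with LPS than with DMSO and higher again with LPS+Skatole. DMSO libraries held 55, 64 and 47 of these peaks, LPS libraries 84, 75 and 86, and LPS+Skatole libraries 94, 96 and 94. The groups did not overlap. In bulk libraries like these, more cells with a peak and more binding per cell cannot be told apart. The means were 55.3 ± 8.50 (SD, n = 3), 81.7 ± 5.86 (SD, n = 3) and 94.7 ± 1.15 (SD, n = 3), so the LPS mean was 1.48 times that of DMSO and the LPS+Skatole mean 1.16 times that of LPS. The whole lists grew by 1.45 and 1.34 times over the same steps. The 9 genes held 0.136% ± 0.0185 of a DMSO list, 0.138% ± 0.0113 of an LPS list and 0.120% ± 0.00281 of an LPS+Skatole list (SD, n = 3 each). When every list was shortened to the same number of its strongest peaks, the ratios were 1.11 (LPS over DMSO) and 0.954 (LPS+Skatole over LPS). After thinning to the same genome background they were 1.16 and 1.24, and those of the whole lists 1.12 and 1.31. Thinning scaled each called peak down to the lowest genome background, with its summit count drawn at random and only once. Peaks then under a −log10 p of 5 were dropped. Reads were not resampled and peaks were not called again, so thinning only approximates lists of equal depth.

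**Figure D1:**
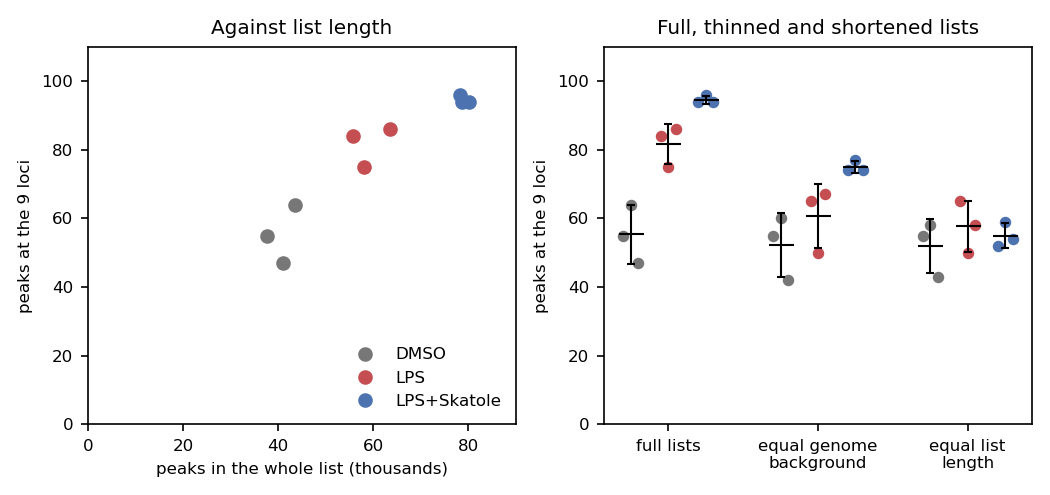
Peaks at the 9 genes per library (points, 3 per treatment), on the left against the number of peaks in the whole list and on the right for full lists, lists thinned to an equal genome background and lists of equal length, with means and SD as black bars. With full lists the groups stand apart, from 47 to 64 in DMSO to 94 to 96 in LPS+Skatole, and in lists of equal length they overlap.

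Single genes differed in how they took part. For each gene a joint exact permutation test compared the 3 groups over all 280 divisions of the 9 libraries, which allows no p under 0.00357. It gave a p of at most 0.05 for 3 of the 9 genes, Spi1, Mitf and Runx1, where 16.5% of all 19505 genes tested had one. After Benjamini-Hochberg adjustment over all 19505 genes none of the 9 passed, nor did any gene (smallest adjusted p = 0.259 by the exact permutation test). LPS was above DMSO without overlap for 3 of the 9 (Spi1, Cebpb and Mitf), as for 12.2% of all genes tested. LPS+Skatole was above LPS for 2 (Runx1 and Mitf; 9.1% of all genes) and below it for 1 (Spi1; 0.774%). LPS+Skatole was above DMSO for 4 (Spi1, Cebpa, Runx1 and Mitf; 25.4%), and neither LPS nor LPS+Skatole was below DMSO for any of the 9 (0.364% and 0.174% of all genes). In lists of equal length 0 of the 9 stood apart in any pair and 0 had a joint p of at most 0.05. After thinning to an equal genome background 1 had such a p (Mitf), and LPS was above DMSO for 0 of the 9. LPS+Skatole was then above LPS for 3, below it for 0 and above DMSO for 2, with whole lists still 1.31 times as long as with LPS. The shares of all genes in this paragraph are those of the full lists. None was computed for the other lists, so the counts in those have no share to be set beside. With the lists held to peaks of −log10 p of at least 10, LPS+Skatole was above LPS for 0 and below it for 0, so none of Spi1, Runx1 and Mitf stood apart in that pair, with LPS+Skatole minus LPS differences of -1 (Spi1), 6 (Runx1) and 4.67 peaks (Mitf). The joint exact permutation p was then 0.0464 (Spi1), 0.0214 (Runx1) and 0.00714 (Mitf), and 4 of the 9 had one of at most 0.05. In these lists LPS was above DMSO for 3 and LPS+Skatole above DMSO for 5. The whole lists of such peaks still differed, by 1.54 times (LPS over DMSO) and 2.03 times (LPS+Skatole over DMSO). With 3 libraries against 3 an exact permutation test of a pair cannot go under p = 0.1, so pairs are given by whether their values overlap.

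Spi1 (chr2:91082374-91115759), the gene of PU.1, had most peaks with LPS. DMSO libraries had 6, 8 and 8 peaks, LPS libraries 13, 14 and 12, and LPS+Skatole libraries 9, 10 and 10. Every LPS library was thus above every other library, and every LPS+Skatole library above every DMSO library. The joint exact permutation p was 0.00357 and the adjusted p 0.259. This order, LPS above LPS+Skatole above DMSO without overlap, held for 0.0974% of the genes tested (19 of 19505). The order was defined by the counts of Spi1, so this share is a description and not a test. In lists of equal length the LPS excess over DMSO was 1.67 peaks (joint exact permutation p = 0.371), and after thinning 2.67 peaks (joint exact permutation p = 0.0786), against 5.67 in the full lists. The LPS+Skatole minus LPS difference was -3.33 in the full lists, -1.67 in lists of equal length and -1.33 after thinning, and the LPS+Skatole minus DMSO difference was 2.33, 0 and 1.33.

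The 4 Spi1 regions found in all 9 libraries held 4 to 6 peaks in each library. Regions found in 2 to 8 libraries held 1, 3 and 3 peaks in DMSO, 8, 5 and 7 in LPS and 4, 4 and 4 in LPS+Skatole. Of the 21 Spi1 regions, 7 were found in 1 library. LPS libraries and no other treatment held 6 of the 21 (28.6%), beside 21.6% of all 235070 regions. The region chr2:91117961-91119780, beyond the gene's end, also overlaps the neighbouring gene Mybpc3, a cardiac myosin-binding protein, so its peaks cannot be given to Spi1 alone.

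One Spi1 region, chr2:91092813-91093791, was called in 3 of 3 LPS libraries and in 0 of 3 of either other group. Of the 44522 regions found in at least 3 libraries, 0.362% had this pattern. Its median summit lay 10839 bases inside the gene body, and its summits had 22, 16 and 21 reads. As summit height, the reads at the summit divided by the genome background, these were 9.59, 7.19 and 8.96. An adjacent region, chr2:91092294-91092760, was found in 1 LPS and 1 LPS+Skatole library. Another on its other side, chr2:91093819-91094364, was found in DMSO replicate 2 alone, with 17 reads and a height of 12.2, above all 3 LPS heights. The weakest peaks called in LPS+Skatole lists reached 4.59 to 4.87 times their background, below these heights, and those in DMSO lists 6.44 to 7.34 times, which reaches the lowest of them. The 3 LPS summits lay apart, at positions 91093126, 91093213 and 91093626. The call was lost in lists of equal length, after thinning, and when regions were drawn as 200 bases around summits, since the 3 peaks then do not all fall into 1 region.

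**Figure D2:**
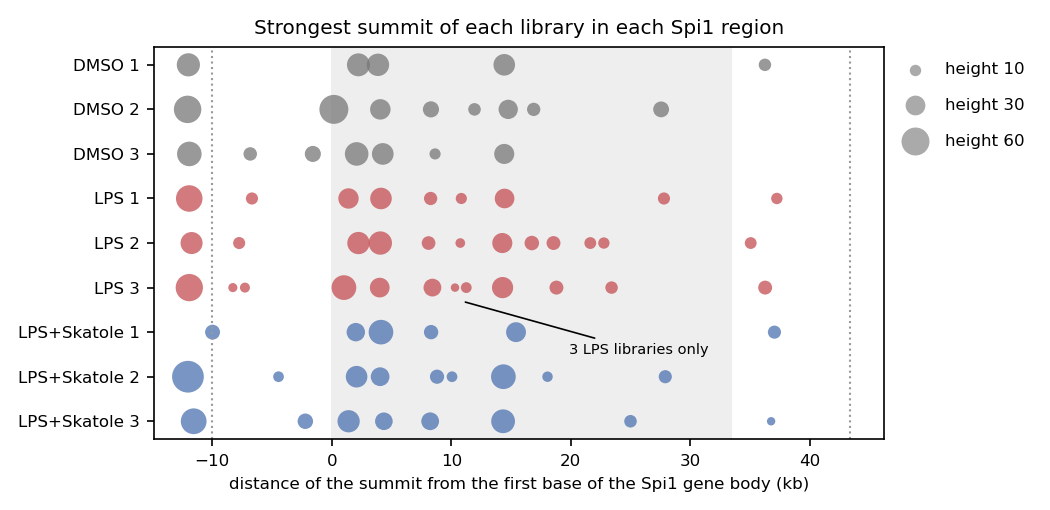
Strongest summit of each library (rows) in each Spi1 region, by distance in kb from the first base of the gene body (grey), with the window's edges dotted and the point's area in proportion to summit height (reads at the summit over the genome background). The 4 constant regions recur in every row, and the region marked inside the gene body has a point in the 3 LPS rows alone.

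In height, the constant Spi1 regions did not follow the peak number. The region chr2:91081552-91085131 at the gene's start had heights of 40.4, 64.4 and 42.7 in DMSO, 31.8, 38.2 and 46.9 in LPS and 26.1, 35.8 and 38.0 in LPS+Skatole. DMSO was above LPS+Skatole without overlap, and LPS overlapped both. The summits in this region spread over 2056 bases, and the highest value, of DMSO replicate 2, came from the summit at 91082552. These heights are therefore not all of 1 site. The 46.9 of LPS replicate 3 came from a peak at percentile 25.4 of its list when ordered by p-value. The region chr2:91068298-91072927, upstream of the gene, straddles the window's edge, so most of its strongest summits lie just outside the window. Its mean heights were 48.5 ± 8.52, 49.5 ± 10.7 and 48.5 ± 30.2 (SD, n = 3 each), with values of 17.1, 77.4 and 50.9 within LPS+Skatole. The 17.1, of LPS+Skatole replicate 1, came from a summit at 91072406, while all other libraries had theirs between 91070319 and 91070827. The region chr2:91095570-91098617, 14428 bases inside the gene, was at 31.8 ± 3.67, 31.7 ± 2.54 and 40.2 ± 8.73 (SD, n = 3 each). None of the 4 constant Spi1 regions passed limma in any comparison (adjusted p from 0.229 upwards). Ordered by p-value within its list, each library's strongest peak in the Spi1 window ranked 3777, 5257 and 5060 with DMSO and 2502, 3530 and 3050 with LPS. With LPS+Skatole it ranked 7508, 2099 and 1481, overlapping both (joint exact permutation p = 0.468 for log10 rank, adjusted p = 0.760). These ranks are not of 1 peak, since the strongest peak lay in different regions. In LPS replicate 1 and LPS+Skatole replicate 3 it lay in the region at the window's edge. That region's strongest peaks in LPS replicate 3 (rank 2482) and LPS+Skatole replicate 2 (rank 1425) missed the window and were not counted. Ranks were not recomputed in lists of equal length or depth.

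Mitf (chr6:97807002-98021360) had more p65 peaks in each step. Its libraries had 13, 20 and 12 peaks with DMSO, 27, 25 and 25 with LPS and 33, 31 and 31 with LPS+Skatole. All 3 groups stood apart. The joint exact permutation p was 0.00357 (adjusted p = 0.259). After thinning, the LPS excess over DMSO was 5.00 and that of LPS+Skatole over LPS 5.00 (joint exact permutation p = 0.00714), but LPS and DMSO libraries then overlapped. In lists of equal length the differences were 4.33 and 0.333 (joint exact permutation p = 0.196), and no group stood apart from another. Of its 60 regions, 27 were found in 1 library and 6 in all 9.

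Regions of Mitf gained against DMSO, that is called in 3 of 3 libraries of one group and in 0 of 3 of the other, all lay inside the gene body. LPS gained chr6:97816964-97818115 and chr6:97861714-97864233, 11005 and 56474 bases inside it. The former had summits of 61, 26 and 53 reads with LPS and of 61 and 33 reads in 2 of the 3 LPS+Skatole libraries. The latter had 19, 55 and 23 reads with LPS and 32, 37 and 21 with LPS+Skatole. LPS+Skatole gained that same region and also chr6:97873062-97874039 (28, 24 and 29 reads) and chr6:97924091-97924897 (25, 68 and 63 reads), each of which 2 LPS libraries had too.

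The strongest Mitf region, in contrast, was not higher where peaks were more numerous. At the upstream promoter printed above, chr6:97803368-97810637, the heights were 51.4, 51.5 and 46.4 with DMSO, 26.6, 37.7 and 40.1 with LPS and 17.5, 47.3 and 23.0 with LPS+Skatole. Every DMSO library was above every LPS library. By limma the LPS minus DMSO difference was -0.54 in log2 height (SE 0.31, adjusted p = 0.321), where the median of all 13824 regions was -0.24. The LPS+Skatole minus DMSO difference was -0.90 (SE 0.31, adjusted p = 0.098). Without LPS+Skatole replicate 2 it was -1.31 with an adjusted p of 0.017 by limma, where 1.01% of all regions were called lower. In LPS+Skatole replicate 1 the strongest summit of this region lay 3361 bases past the start of transcription, while in the other 8 libraries it lay 56 to 101 bases before it.

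The genes whose peak number ran most like that of Mitf over the 9 libraries were Cdk14, Etv6 and Tbxas1. Each had a Spearman rho of 0.975 over the 9 libraries, out of 186 genes of like peak number. Cdk14 ran from 13 to 18 peaks in DMSO to 30 to 44 in LPS+Skatole, Etv6 from 11 to 13 to 23 to 28, and Tbxas1 from 7 to 13 to 22 to 24. All of them share the libraries and hence the list lengths.

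Runx1 (chr16:92601466-92826074), a factor of blood stem cells that works with PU.1, had most peaks with LPS+Skatole. The libraries had 19, 18 and 11 peaks with DMSO, 16, 18 and 24 with LPS and 28, 26 and 29 with LPS+Skatole. DMSO and LPS overlapped, and every LPS+Skatole library was above all others. The joint exact permutation p was 0.0214 (adjusted p = 0.259). Without LPS+Skatole replicate 1, 2 or 3 the joint exact permutation p was 0.0571 to 0.0643. In lists of equal length the LPS+Skatole minus LPS difference was 0.667 peaks (joint exact permutation p = 0.861) against 8.33 in the full lists, and after thinning it was 7.33 peaks (joint exact permutation p = 0.136). Of its 69 regions, 41 were found in 1 library. LPS+Skatole libraries and no other treatment held 24 of the 69 (34.8%), beside 40.4% of all regions.

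Runx1 also held a region whose height differed between treatments. At chr16:92619985-92622777, inside the gene body and 76332 bases downstream of the proximal start of transcription, the summits had 47, 64 and 61 reads with DMSO, 113, 134 and 155 with LPS and 200, 216 and 142 with LPS+Skatole. As multiples of the genome background these were 43.1, 45.8 and 44.9, then 49.2, 60.2 and 66.1, then 85.5, 95.5 and 59.3. DMSO libraries were below all others, and LPS+Skatole replicate 3 lay among the LPS libraries. The summit itself stayed within 121 bases in the 9 libraries.

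By limma with Benjamini-Hochberg adjustment over 13824 regions, the Runx1 region was higher with LPS+Skatole than with DMSO by 0.82 in log2 height (SE 0.21, adjusted p = 0.031), while the median of all regions differed by -0.01. It is 1 of 22 member regions found in all 9 libraries, and the only one called there, where 3.65% of all such regions were called higher. The difference of LPS from DMSO was 0.38 (adjusted p = 0.302) and that of LPS+Skatole from LPS 0.43 (adjusted p = 0.286), both by limma. The call was lost on leaving out any of the 3 DMSO libraries or LPS+Skatole replicate 1 or 2 (limma adjusted p of 0.065 to 0.126), with the difference then at 0.68 to 0.84. Centred on the median region, it held among regions found in all 9 libraries (0.74, limma adjusted p = 0.044). It was lost with that centring among regions found in all 6 libraries of the pair, where 0 member regions were called higher.

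The same Runx1 peak stood near the top of its lists. Within a list ordered by the p-value of the peak, its rank from the top was 2829, 2399 and 2514 with DMSO, 1051, 582 and 493 with LPS and 265, 177 and 1067 with LPS+Skatole. DMSO ranks did not overlap the others. The lists differ in length and depth and ranks were not recomputed at equal length or depth, so they cannot be read as a change in binding. The joint exact permutation p for log10 rank was 0.0143 (adjusted p = 0.272). Over all genes, 13.5% of the 11870 with a peak in every library had a joint p of at most 0.05 and none passed after adjustment, and of the 9 genes here, Runx1 and Mitf had one. For Mitf the joint exact permutation p was 0.0464 (adjusted p = 0.360), with median ranks of 1668, 2157 and 3866, but a rank counted from the top also moves with the length of the list. On the percentile, which divides the rank by that length, the Mitf groups overlapped (joint exact permutation p = 0.836, adjusted p = 0.910). The percentile moves with length too, since a peak of constant rank rises in it when weaker peaks are added below. Irf8 had a joint exact permutation p of 0.646 for log10 rank and of 0.05 for the percentile, and Runx1 had 0.0143 and 0.0107, where 20.9% of all genes had a p of at most 0.05 for the percentile. With each library left out in turn, 0 to 1 of the 9 genes had such a p for log10 rank.

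**Figure D3:**
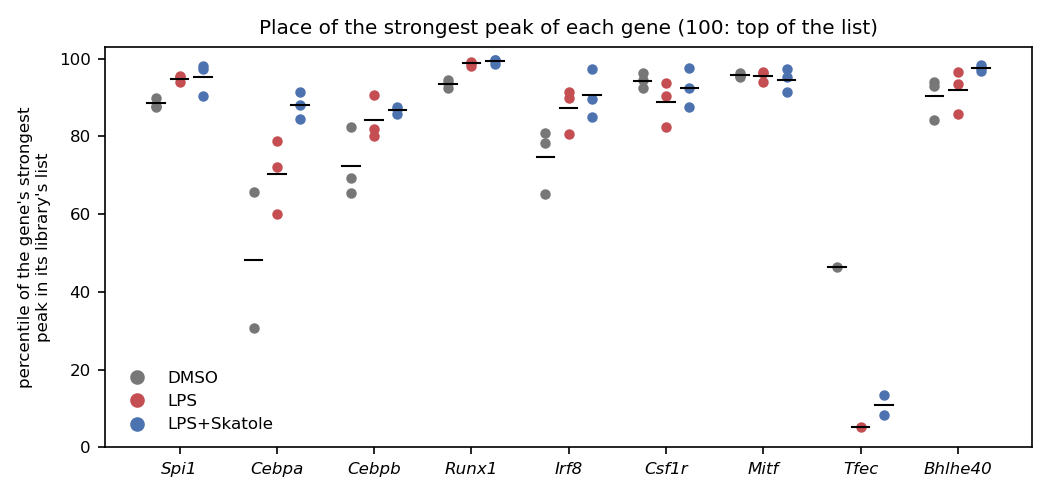
Percentile of each gene's strongest peak within the list of its library, ordered by p-value (100 is the top), with points for libraries that had a peak and bars for the means. Runx1 moves from 93.6 (mean, DMSO) to 99.4 (mean, LPS+Skatole), Mitf stays at means of 94.6 to 95.8, and Tfec has a point in 4 libraries alone.

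The distal Runx1 promoter printed above lies in the region chr16:92822585-92826960. Its heights were 33.0, 25.7 and 32.4 with DMSO, 32.3, 33.2 and 38.4 with LPS and 39.7, 44.2 and 55.5 with LPS+Skatole. LPS+Skatole libraries were above all others. The difference from DMSO was 0.61 in log2 height (SE 0.23, limma adjusted p = 0.140), and on the authors' fold over local background it was 0.91 with a limma adjusted p of 0.022, where 5.82% of all regions were called higher on that fold. LPS+Skatole also gained the region chr16:92633353-92634419 against both LPS and DMSO, with weak summits of 21, 14 and 28 reads.

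The C/EBP genes are intronless and short, so their windows hold mostly flanking sequence. Cebpa (chr7:35119293-35121928), which directs progenitors to the myeloid fate, had 2, 0 and 1 peaks with DMSO, 2, 1 and 3 with LPS and 3, 3 and 3 with LPS+Skatole. LPS+Skatole was above DMSO without overlap and overlapped LPS (joint exact permutation p = 0.0929, adjusted p = 0.394). None of its 3 regions was found in all 9 libraries, and 0 libraries had a peak on its promoter.

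In a region downstream of Cebpa the strongest summit was higher with LPS+Skatole than with LPS, though not always at the same place. In the region chr7:35126221-35129196, whose median summit lies 5928 bases beyond the gene, LPS summits had 42, 62 and 27 reads and LPS+Skatole summits 138, 118 and 110. As heights these were 18.3, 27.9 and 11.5 against 59.0, 52.2 and 45.9, without overlap, and 1 DMSO library had a peak there, of height 14.7. The LPS+Skatole summits lay at 35127848, 35127918 and 35127865 and the LPS summits at 35127493, 35127856 and 35126900. Only LPS replicate 2 thus had its summit among those of LPS+Skatole, and the comparison is of the merged region and not of 1 site. Since 2 DMSO lists lack it, the region is outside the comparison of regions found in all 9 libraries. Among the 19799 regions found in all 6 libraries of this pair, limma gave a log2 difference of 1.53 (SE 0.30, adjusted p = 0.027), a fold of 2.89, where the median of all regions was 0.27 and 1.34% were called higher and 0.0404% lower. Centred on the median region of each library, the difference was 1.20 (limma adjusted p = 0.167). Leaving out any library but LPS replicate 2 also ended the call (limma adjusted p of 0.063 to 0.085), with differences of 1.21 to 1.62. A weaker region inside the gene, chr7:35120381-35121128, was gained in LPS+Skatole against LPS, with 26, 32 and 43 reads, and DMSO replicate 1 had it as well (17 reads).

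Cebpb (chr2:167688915-167690432), the C/EBP factor of inflammatory activation, had more peaks with LPS than with DMSO. DMSO libraries had 2, 3 and 3, LPS libraries 5, 5 and 6, and LPS+Skatole libraries 3, 7 and 4. LPS was above DMSO without overlap, and LPS+Skatole overlapped both (joint exact permutation p = 0.136, adjusted p = 0.458). At 19.6 peaks per 100 kb of window over the 9 libraries, Cebpb was at percentile 95.8 of all genes. Its promoter region chr2:167687736-167689789 had mean heights of 22.9 ± 4.33, 22.2 ± 1.66 and 26.9 ± 5.45 (SD, n = 3 each), with no limma call (adjusted p of 0.641 to 0.962). A region beyond the gene, chr2:167697628-167698443, was found in 7 libraries and reached heights of 17.4 to 35.7.

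**Figure D4:**
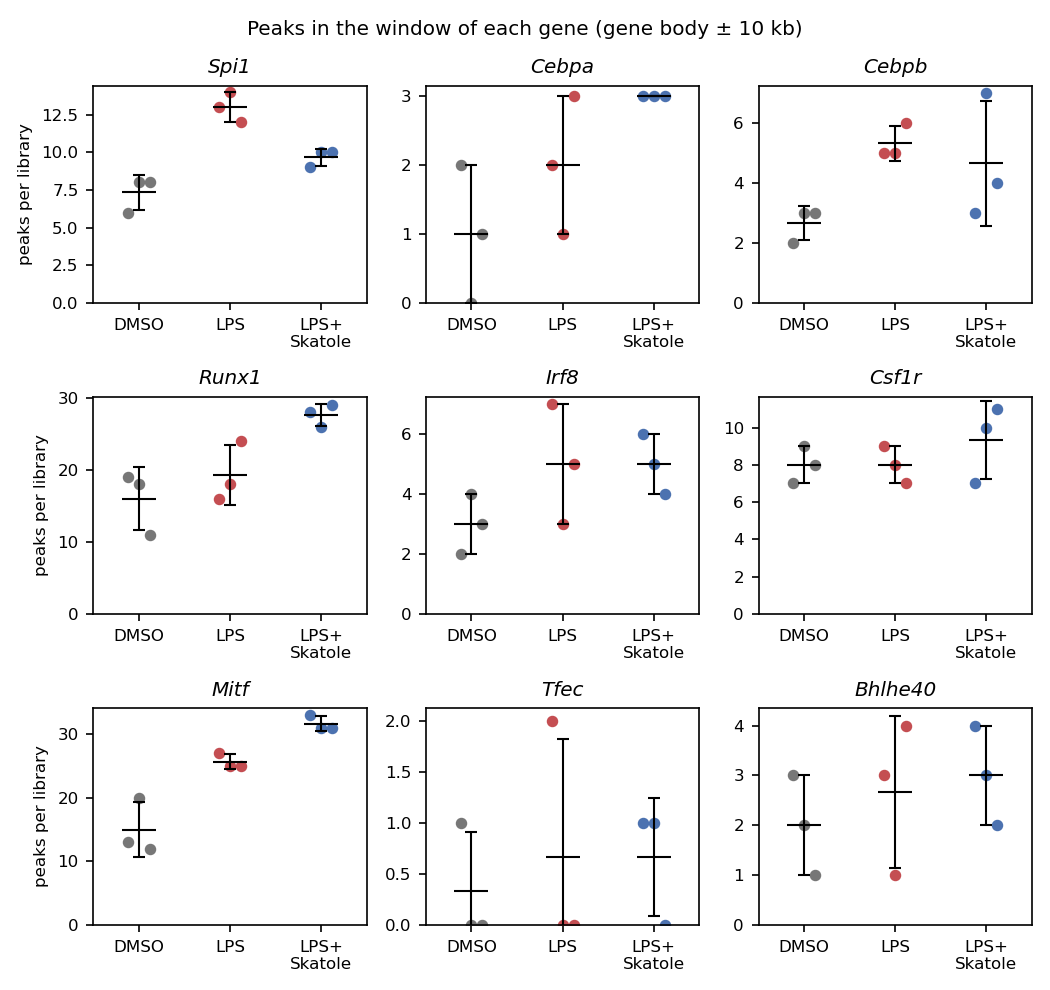
Peaks in the window of each of the 9 genes (panels) per library (points, 3 per treatment), with means and SD as black bars and an axis from 0 in each panel. Spi1 peaks at 12 to 14 with LPS, Mitf climbs from 12 to 20 with DMSO to 31 to 33 with LPS+Skatole, and the groups of Csf1r, Irf8, Tfec and Bhlhe40 overlap.

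Csf1r (chr18:61105572-61131139) had about as many peaks in every group, at 7, 9 and 8 with DMSO, 9, 8 and 7 with LPS and 7, 10 and 11 with LPS+Skatole (joint exact permutation p = 0.507, adjusted p = 0.828). The gene was dense in peaks (18.5 per 100 kb, percentile 94.8). Its strongest regions lay before the gene and at its start, and part of the window beyond its end overlaps the neighbouring gene Hmgxb3. In the upstream region chr18:61100378-61103780 the heights were 62.4, 77.9 and 55.2 with DMSO, 54.0, 39.1 and 35.0 with LPS and 70.9, 60.6 and 60.1 with LPS+Skatole. LPS libraries were below all others. By limma LPS minus DMSO was -0.62 (SE 0.22, adjusted p = 0.121) and LPS+Skatole minus LPS 0.60 (SE 0.22, adjusted p = 0.176), both larger than the shifts of all regions of -0.24 and 0.24 and neither past the threshold.

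At the start of Csf1r, in the region chr18:61105114-61106444, no peak was called in 1 DMSO library, and the other heights were 32.2 and 34.6 with DMSO, 32.3, 30.1 and 39.7 with LPS and 62.8, 55.7 and 55.5 with LPS+Skatole. DMSO and LPS overlapped, and LPS+Skatole stood above both. Among regions found in all 6 libraries of the pair, LPS+Skatole minus LPS was 0.78 in log2 height (SE 0.22, limma adjusted p = 0.070), a fold of 1.72. The strongest Csf1r peak stood at percentiles of 92.4, 96.3 and 94.4 of its list with DMSO, 93.8, 90.3 and 82.3 with LPS and 97.6, 92.5 and 87.5 with LPS+Skatole, and all groups overlapped (joint exact permutation p = 0.379, adjusted p = 0.608).

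**Figure D5:**
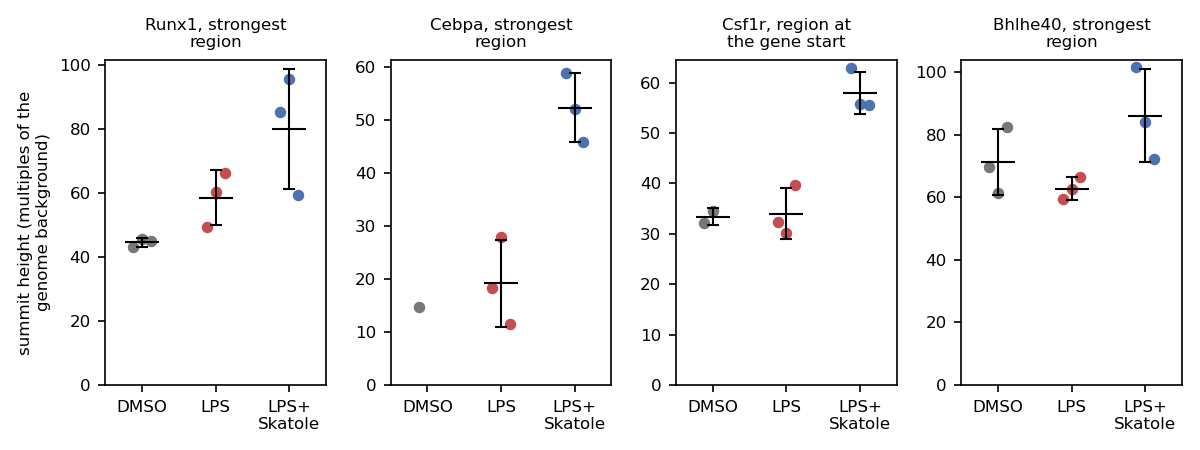
Summit height, as multiples of the genome background of the library, in 4 regions (panels) per library (points), with means and SD as black bars where at least 2 libraries had a peak. In the Cebpa and Csf1r regions the 3 LPS+Skatole libraries lie above all LPS libraries, and in the Runx1 and Bhlhe40 regions LPS+Skatole is highest on average.

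Irf8 (chr8:120736358-120756694), an interferon regulatory factor needed for monocytes, had 2, 4 and 3 peaks with DMSO, 7, 3 and 5 with LPS and 6, 5 and 4 with LPS+Skatole (joint exact permutation p = 0.282, adjusted p = 0.601). All groups overlapped. Its promoter region chr8:120735333-120737802 had heights of 17.4, 20 and 22.1 with DMSO, 24.4, 11.7 and 21.3 with LPS and 14.5, 26.5 and 18.8 with LPS+Skatole, and all groups overlapped. In the region chr8:120759549-120761150, 3466 bases beyond the gene, the means were 16.8 ± 6.99, 21.9 ± 4.70 and 29.1 ± 15.1 (SD, n = 3 each), and the last value rests on 46.6 in LPS+Skatole replicate 1 beside 21.2 and 19.6 in the others.

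Bhlhe40 (chr6:108660629-108666925) had few peaks and 1 very strong region. Its libraries had 3, 2 and 1 peaks with DMSO, 3, 1 and 4 with LPS and 4, 3 and 2 with LPS+Skatole (joint exact permutation p = 0.707, adjusted p = 0.979). The region chr6:108658057-108661746 at the gene's start had summits of 76, 86 and 112 reads with DMSO, 136, 139 and 156 with LPS and 238, 190 and 173 with LPS+Skatole. Relative to background the means were 71.2 ± 10.5, 62.8 ± 3.65 and 86.0 ± 14.8 (SD, n = 3 each), the highest of the 22 constant regions. LPS+Skatole was above LPS without overlap, by 0.44 in log2 height (SE 0.19, limma adjusted p = 0.240), and overlapped DMSO.

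Tfec (chr6:16830927-16898464) was nearly free of p65 peaks. It had 1, 0 and 0 with DMSO, 2, 0 and 0 with LPS and 1, 1 and 0 with LPS+Skatole (joint exact permutation p = 1.0), in 5 regions that were each found in 1 library. Their summits had 12 to 14 reads, and at 0.635 peaks per 100 kb the gene was at percentile 13.2 of all genes, against a median of 5.22 peaks per 100 kb. Its relative Mitf stood at 10.3 per 100 kb and percentile 76.2.

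Of the 199 regions of the 9 genes, 98 (49.2%) were found in 1 library and 22 (11.1%) in all 9, beside 71.3% and 5.88% of all 235070 regions. The difference was not tested, and single genes ranged from Cebpa, with 0 of 3 regions in 1 library and 0 in all 9, to Tfec, with 5 of 5 in 1 library. Runx1, with most regions, had 59.4% in 1 library and 7.25% in all 9. Regions gained or lost were counted among those found in at least 3 of the 6 libraries of a pair. With a library left out, fewer libraries had to agree, a looser rule for every region. The share of all regions was not computed for those counts, so they cannot be read as more regions gained or lost. Against DMSO, LPS gained 3 of 51 such regions of the 9 genes (1 at Spi1 and 2 at Mitf) and lost 0, where 7.61% and 0.316% of all such regions were gained and lost. Without LPS replicate 1 or LPS replicate 2 it gained 7, without DMSO replicate 1 it lost 1 and without DMSO replicate 3 it lost 2. In lists of equal length it gained 1 of 44 (5.24% of all such regions) and after thinning 0 of 45 (5.34%). LPS+Skatole gained 4 of 54 against DMSO (3 at Mitf and 1 at Runx1) and lost 0, where 12.7% and 0.234% were gained and lost. Without DMSO replicate 1 or 2 it gained 7 and 8, and without LPS+Skatole replicate 1, 2 or 3 it gained 8, 10 and 9. In lists of equal length it gained 1 of 42, where 7.17% of all such regions were gained. Against LPS, LPS+Skatole gained 2 of 62 (at Cebpa and Runx1) and lost 1 (at Spi1), where 2.97% and 0.655% were gained and lost. Without LPS+Skatole replicate 1, 2 or 3 it gained 4, 5 and 6, without LPS replicate 1 or 2 it lost 3 and 2, and without LPS+Skatole replicate 2 it lost 2. In lists of equal length it gained 0 of 44 and lost 0, where 1.88% and 1.14% of all such regions were gained and lost. After thinning it gained 4 of 48 and lost 0, where 3.29% and 0.518% of all such regions were gained and lost.

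In height, limma called 0 of the 22 constant regions between LPS and DMSO (2 with an unadjusted p under 0.05, where 20.9% of all regions had one) and 0 between LPS+Skatole and LPS (2 again, where 17.8% of all regions had one). Of all 13824 regions, 0.383% were called higher and 1.33% lower in LPS than in DMSO, and 0.217% higher and 0.0289% lower in LPS+Skatole than in LPS. The median log2 difference over the 22 was -0.13 for LPS minus DMSO and 0.26 for LPS+Skatole minus LPS, beside -0.24 and 0.24 over all regions. The summit moved by 121 to 3462 bases within these regions, with a median range of 636.5 bases against 476 in all. Only the Mitf region chr6:97855531-97857034 had a joint exact permutation p of at most 0.05 for summit position (0.0393, adjusted p = 0.914), where 5.31% of all regions had one.

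Among 25 other genes of myeloid lineage factors and receptors, 18 had a peak in all 9 libraries and 1 had a joint exact permutation p of at most 0.05, where 16.5% of all genes tested had one. LPS was above DMSO without overlap for 2 of them, beside 12.2% of all genes tested. LPS+Skatole was above LPS for 1 (9.1%) and above DMSO for 5 (25.4%), and none was below in any of these pairs. Of the 6 macrophage marker genes, 4 had such a p (16.5% of all genes) and LPS was above DMSO for 2 (12.2%). For these markers LPS+Skatole was above LPS for 1 (9.1%) and above DMSO for 4 (25.4%), and none was below. Runx2, the runt factor of bone, had 4, 3 and 6 peaks with DMSO, 9, 9 and 7 with LPS and 16, 20 and 12 with LPS+Skatole, with all groups apart (joint exact permutation p = 0.00357, adjusted p = 0.259). Etv3, an ETS-family repressor, had 4, 3 and 6 with DMSO, 8, 8 and 9 with LPS and 4, 8 and 8 with LPS+Skatole, so that LPS was above DMSO without overlap and LPS+Skatole overlapped both. The median gene of these 25 had 1.00 more peak with LPS than with DMSO and 0.667 more with LPS+Skatole than with LPS, against 0.667 and 0.333 over all genes tested and 2.00 and 0.333 over the 9 genes described here.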

How the data were processed

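The authors deposited 1 narrowPeak list per library. In the deposited lists the columns hold the fold of the summit over local background (a linear ratio), the −log10 of the p-value and of the q-value, a score, and the summit's place in the peak. The submitters' notes name fastp 0.20.1, HISAT2 2.1.0, StringTie 2.0 and build mm10 (GRCm38) without a role, and the peak caller is not given in the sources used here. Lists were made per library, with −log10 p of at least 5, and read depth is known only through the lists. Peaks on the 19 autosomes, X and Y were kept.

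The fold and the −log10 p of a peak fix its summit count and background, which were recovered within 0.001 for at least 99.9658% of peaks per list. Height is that count over the library's lowest (genome) background. Genes came from RefSeq GRCm38.p6. Peaks were merged into regions at 1 shared base. Exact permutation tests ran over 280 divisions, and heights were compared with limma 3.58.1 (trend) in R 4.3.3, each with Benjamini-Hochberg adjustment over all genes or regions. Other steps used Python 3.11.15. The scripts were tested on simulated data. Genes named were the 9 members, of a list of 25 others those whose groups LPS and DMSO or LPS+Skatole and LPS did not overlap, the genes most like Mitf, and, at each member, the region with the greatest mean height and every region gained, lost or called. Regions named beyond these were chosen after their values were seen. The members and lists were chosen with earlier results of these data known. Intervals of depth are not given, since lists hold only peaks above a threshold.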

Additional observations from a re-analysis of the deposited data

How the results depend on the processing

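List length and depth moved the peak numbers and the regions gained or lost; rank, height and position were not recomputed under these settings. In lists of equal length the ratios of summed peaks were 1.11 (LPS over DMSO), 0.954 (LPS+Skatole over LPS) and 1.06 (LPS+Skatole over DMSO), no gene had a joint exact permutation p of at most 0.05 (0), and 0 genes stood apart in any of the 3 pairs. In these lists LPS gained 1 region against DMSO (5.24% of all regions counted). LPS+Skatole gained 1 against DMSO (7.17%) and 0 against LPS (1.88%), and lost 0 against LPS (1.14%). The Runx1 differences from DMSO turned to -1.67 (LPS) and -1 (LPS+Skatole) in these lists. After thinning to an equal genome background the ratios to DMSO were 1.16 (LPS) and 1.43 (LPS+Skatole), 1 gene had such a p, LPS was above DMSO for 0 genes, LPS+Skatole was above LPS for 3, above DMSO for 2 and below LPS for 0, and Runx1 turned to -2.33 (LPS minus DMSO). There, LPS gained 0 regions against DMSO (5.34% of all regions counted). Against LPS, LPS+Skatole gained 4 and lost 0 (3.29% and 0.518% of all regions counted). The share of all genes behind counts of genes was computed for the full lists alone. The cause was not tested beyond these constructions.

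With peaks of −log10 p of at least 10, LPS+Skatole was above LPS for 0 genes and below it for 0. When 2 of 3 libraries against 0 sufficed, LPS gained 12 of 71 regions and lost 3 (19.7% and 2.69% of all regions), and LPS+Skatole gained 11 of 94 and lost 4 against LPS (12.8% and 4.78%) and gained 16 of 75 against DMSO (27.7%). With regions drawn as 200 bases around summits, LPS+Skatole lost 0 against LPS, since the 3 Spi1 summits then do not all merge. Ordered by fold, 1 gene had a joint p of at most 0.05 for rank. On the authors' fold, 2 of 22 regions were higher in LPS+Skatole than in DMSO (5.82% of all). Among regions of all 6 libraries of a pair, 1 was higher in LPS+Skatole than in LPS (1.34% of all), and centred on the median region, chosen after seeing the data, 0 were higher in LPS+Skatole than in DMSO. By mean summit, 2 regions had a joint p of at most 0.05 for position.

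The replicate number did not pair the libraries (correlation of same-numbered libraries from -0.0117 to 0.0111). With the number as a block, 2 genes had a joint exact permutation p of at most 0.05 for peak number (Runx1 at 0.111) and 0 for rank.

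Leaving out each replicate in turn gave 1 to 2 genes with LPS+Skatole below LPS, and 0 to 1 gene for rank. Regions gained numbered 3 to 7 (LPS against DMSO), 2 to 6 (LPS+Skatole against LPS) and 4 to 10 (LPS+Skatole against DMSO). Regions lost numbered 0 to 2 (LPS against DMSO) and 1 to 3 (LPS+Skatole against LPS). Fewer libraries had to agree there, and the share of all regions was not computed for these counts. LPS+Skatole was higher than DMSO in 0 to 1 regions and lower in 0 to 1, and 0 to 2 regions had such a p for position. Reads below the caller's threshold are not in the lists, so a missing peak says only that none was called.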
